A study of Mus musculus with 4 samples.

Results

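The expression of 9 genes that mark neural progenitors was followed in mouse embryonic stem cells (ESCs) with and without the chromatin remodeler SNF2L. They are Pax6, Nes, Sox1, Sox3, Hes5, Pou3f2, Ncam1, Cdh2 and Fabp7, and their rows were found by Entrez gene among the 24594 genes of the deposited count table. All 9 members were found, and 6 of them were among the 13840 genes that passed the filter on low counts. Pax6 and Nes were put on the list because they were lower in the knockout, so their difference between genotypes is a description and carries no test. The remaining 7 genes were examined to see whether that fall was shared.

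Poly(A) RNA was sequenced from ESCs of the 129S6/SvEvTac line. The wild-type (WT) group had 2 libraries, and the group labelled Snf2l knockout also had 2. Neither group was treated, and the cells were grown in serum with leukemia inhibitory factor on gelatin. Snf2l is the gene Smarca1, and SNF2L is an ATPase of the imitation switch (ISWI) family. The study's methods describe a mutant line as 1 selected clone obtained by Cas9 editing, so genotype and clone cannot be told apart. The labels name the libraries as duplicates without saying whether they came from separate cultures. The study's methods call its RNA-seq replicates independent, and its reporting summary calls replicates biological. P-values measure the spread between these libraries, which may in part be technical.

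Neural progenitors arise when cells of the early embryo leave pluripotency in the absence of signals that direct them to other fates. SOX1, SOX2 and SOX3 are closely related SOXB1 transcription factors that hold cells in the progenitor state, and SOX2 is also a core pluripotency factor of ESCs. PAX6 specifies neuroectoderm of the eye and forebrain, HES5 carries out Notch signaling by blocking neuronal differentiation, and POU3F2 (BRN2) acts with SOX factors on neural enhancers. NES (nestin) is an intermediate filament protein, NCAM1 and CDH2 (N-cadherin) are adhesion molecules of the neural tube, and FABP7 is a fatty acid binding protein of radial glia.

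The libraries held between 13771642 and 15608803 counts. The targeted gene Smarca1 was read first and gave 620 and 626 counts for WT, against 37 and 31 for the libraries labelled knockout, in the direction the labels state. The 10 ESC markers examined, among them Pou5f1 and Nanog, were all tested. Their summed level was 5020 to 5250 CPM (counts scaled to the size of the library) for WT and 5420 to 5460 CPM for the knockout. Of these, 1 fell (Zfp42, a gene of chromosome 8, at -0.60 on the log2 scale) and 1 rose (Klf4, at 0.34), by the rule of an adjusted p-value under 0.05. This rule gave 721 genes that fell (5.21% of those tested) and 553 that rose (4.0%). Chromosome 8 as a whole was lower in the knockout, with a median log2 fold change of -0.51 over 753 tested genes. With that shift removed, 217 genes fell and 445 rose.

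The sequences just before the annotated starts of the genes that were lower are shown here, without the starts themselves. They are the 250 bases before the start, 5′ to 3′, from RefSeq on GRCm38.p6, the assembly that mm10 represents. Capitals mark the letters ATTGT or, on the other strand, ACAAT, a core motif of SOX factors. Pax6 has 2 annotated starts, at chr2:105668646-105668895 and chr2:105682213-105682462 (both on the plus strand). Nes is shown at chr3:87970843-87971092 and Sox1 at chr8:12395269-12395518, also on the plus strand.
Pax6, upstream start: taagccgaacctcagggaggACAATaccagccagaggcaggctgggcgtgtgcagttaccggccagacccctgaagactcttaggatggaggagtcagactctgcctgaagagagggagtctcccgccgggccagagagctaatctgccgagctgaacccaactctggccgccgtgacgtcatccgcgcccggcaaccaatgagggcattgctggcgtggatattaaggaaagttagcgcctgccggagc
Pax6, downstream start: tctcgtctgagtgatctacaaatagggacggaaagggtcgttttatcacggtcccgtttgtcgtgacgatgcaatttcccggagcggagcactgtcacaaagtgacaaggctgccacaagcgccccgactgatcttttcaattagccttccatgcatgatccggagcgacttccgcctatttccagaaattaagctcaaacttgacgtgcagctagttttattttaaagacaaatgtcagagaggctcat
Nes: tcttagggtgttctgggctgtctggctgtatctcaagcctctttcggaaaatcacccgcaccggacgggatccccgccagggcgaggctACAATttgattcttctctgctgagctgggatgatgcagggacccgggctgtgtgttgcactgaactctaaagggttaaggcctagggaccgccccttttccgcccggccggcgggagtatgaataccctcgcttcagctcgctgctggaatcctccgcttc
Sox1: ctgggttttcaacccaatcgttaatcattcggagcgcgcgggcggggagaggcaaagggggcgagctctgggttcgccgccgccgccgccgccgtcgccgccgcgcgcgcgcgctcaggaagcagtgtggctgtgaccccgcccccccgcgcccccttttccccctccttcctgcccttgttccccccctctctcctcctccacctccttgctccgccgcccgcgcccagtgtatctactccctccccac

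The Pax6 upstream window and the Nes window each held 1 match to the SOX motif, and the Pax6 downstream window and the Sox1 window held 0. Of 32851 such windows in the RefSeq table, 27.7% held at least 1 match, so that matches of this kind are common. The octamer of POU factors (ATGCAAAT, or ATTTGCAT on the other strand) was in 0 of these 4 windows and in 1.6% of all windows. The core of the CTCF motif, on either strand, was in 0 of the 4 windows and in 0.0335% of all windows. Both Pax6 windows and the Nes window had 15 CpG dinucleotides each and the Sox1 window had 29, against a median of 6. Which start was used in these cells cannot be read from counts per gene.

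In WT ESCs the neural progenitor genes were expressed at low levels, and 3 of the 9 were close to absent. Levels of different genes are given as RPKM, the CPM value per kb of the gene length in the deposited table, as mean ± SD over the 2 WT libraries. The order was Nes (6.82 ± 0.0230), Pax6 (1.75 ± 0.0258), Sox1 (1.69 ± 0.0503), Ncam1 (1.22 ± 0.153), Sox3 (1.10 ± 0.00213) and Cdh2 (0.580 ± 0.163). Nes stood well above the rest. Pax6 and Sox1, and likewise Ncam1 and Sox3, lay within the spread of their libraries or close to it. Nes was at the 53.7th percentile of the WT levels of all genes tested and Cdh2 at the 13.0th. Sox2, the SOXB1 factor that ESCs use, was at 213 ± 5.11 RPKM in WT, which was 126 times the level of Sox1 and 193 times that of Sox3.

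**Figure D1:**
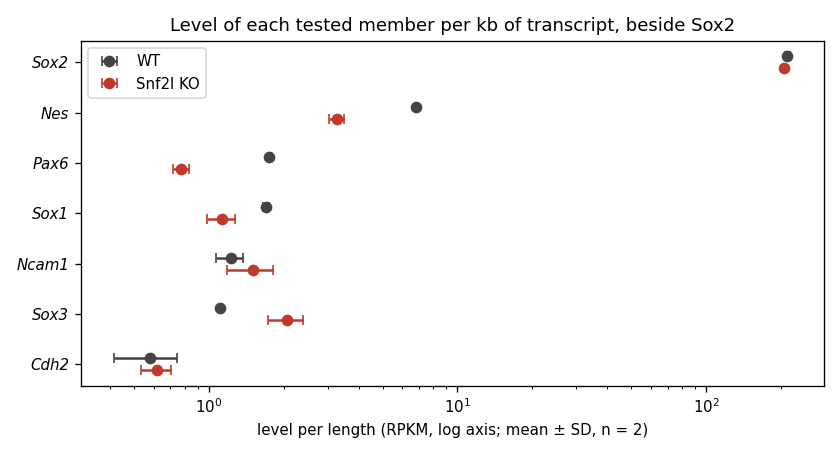
Level per length of the 6 tested members and of Sox2 (x axis, RPKM on a log axis), as mean ± SD of 2 libraries for WT (dark) and Snf2l knockout (red). Sox2 lies at 213 RPKM in WT and 206 RPKM in the knockout, whereas the highest member, Nes, lies at 6.82 RPKM in WT.

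Nes, the filament gene, was lower in both knockout libraries. It had 43.9 and 43.6 CPM in the WT libraries and 20.01 and 21.99 CPM in the knockout libraries. The genotypes did not overlap, and the WT libraries were nearly equal. The log2 fold change was -1.06 (SE 0.109), which left 48.0% of the WT level. Between 1 knockout and 1 WT library the log2 ratio of CPM ranged from -1.13 to -0.99. Nes (Entrez gene 18008) lies on chromosome 3 from 87971093 to 87980451, and 597 and 669 counts in WT against 314 and 338 in the knockout stand behind these levels.

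Pax6, the neuroectoderm regulator, was lower by a similar amount. It had 20.1 and 20.6 CPM in the WT libraries and 9.43 and 8.52 CPM in the knockout libraries. Here too the genotypes did not overlap, as in 25.3% of all genes tested in this direction, and Pax6 was likewise chosen because it was lower. The log2 fold change was -1.18 (SE 0.134), which left 44.2% of the WT level, from 274 and 315 counts in WT against 148 and 131 in the knockout. Pax6 (Entrez gene 18508) lies on chromosome 2 from 105668896 to 105698410. Among all genes tested, 0.419% passed the study's threshold for a differentially expressed gene (an adjusted p-value under 0.01 and over 2-fold change) in the lower direction and 0.571% in the higher. Both genes lay past that threshold, which is how they were chosen. The ratio of Nes to Pax6 in CPM was 2.18 and 2.12 in WT, and 2.12 and 2.58 in knockout cells. Leaving out any 1 library kept the log2 fold change of Pax6 between -1.25 and -1.11 and that of Nes between -1.13 and -0.99. As both genes were chosen on these libraries, this range is a description and no test of the fall.

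**Figure D2:**
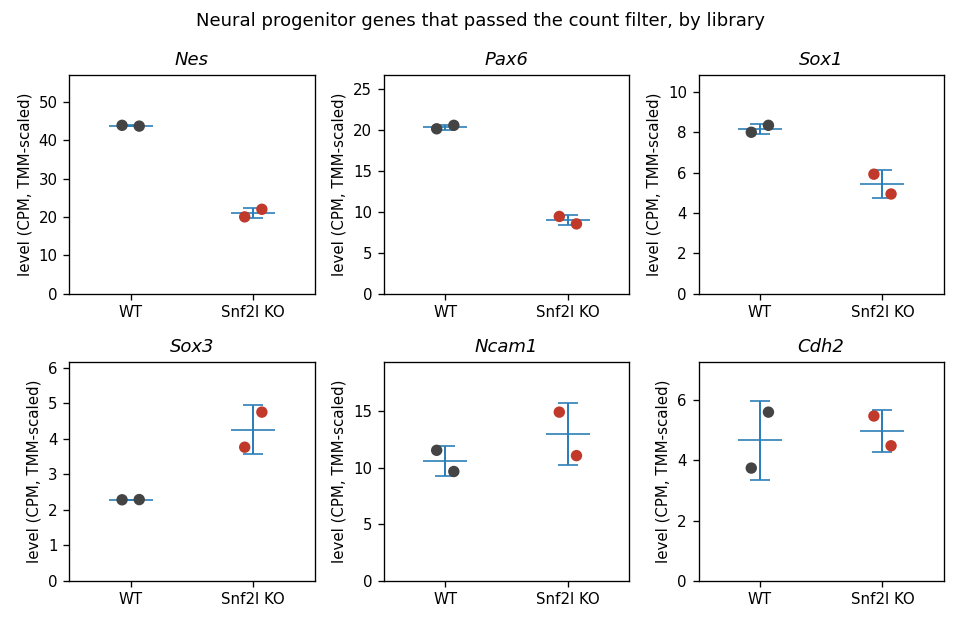
Level of each tested member in each library (y axis, CPM on TMM-scaled library sizes, starting at 0), with WT in dark and Snf2l knockout in red. The blue bars give the mean ± SD of 2 libraries. Mean levels of Nes are 43.8 and 21.0 CPM and those of Pax6 20.3 and 8.98 CPM, Sox3 is higher in the knockout, and the libraries of Ncam1 and Cdh2 overlap between genotypes.

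Whether the remaining members followed Pax6 and Nes was tested next. Of the 7 other members, 4 were tested, of which 1 fell (Sox1), 1 rose (Sox3) and 2 passed the threshold in neither direction (Ncam1 and Cdh2). Over all genes tested, 5.21% fell and 4.0% rose (9.21% in either direction) by the same rule, edgeR's quasi-likelihood test with a Benjamini-Hochberg adjusted p-value under 0.05. At an unadjusted p-value under 0.05 the count was 2 of the 4, against 22.2% of all genes tested. None of the 4 reached the study's threshold for a differentially expressed gene. The median log2 fold change of the 4 was 0.19, against 0.0002 over all genes tested, and their values ran from -0.59 to 0.90. None of their 95% intervals reached -1.12, the mean log2 fold change of Pax6 and Nes. That mean is taken without its own error and from genes chosen for their fall, so the comparison is only a description. The interval of Sox1 (-0.95 to -0.23) overlapped those of Nes (-1.29 to -0.83) and Pax6 (-1.46 to -0.89).

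Sox1, the SOXB1 factor that appears with neural commitment, was lower. It had 8.01 and 8.35 CPM in the WT libraries and 5.93 and 4.95 CPM in the knockout libraries. Neither knockout library reached the lower WT library, as was the case for 25.3% of all genes tested. The log2 fold change was -0.59 (SE 0.168, 95% interval -0.95 to -0.23, edgeR adjusted p = 0.0398). Sox1 (Entrez gene 20664, 12395519 to 12399555) lies on chromosome 8, where 60.2% of the tested genes fell. The log2 fold change of Sox1 differed from the median of that chromosome by -0.08, and with the chromosome 8 shift removed it was -0.08 with an edgeR adjusted p of 0.845. The call was also lost without WT replicate 1 (-0.62, adjusted p = 0.0857), without WT replicate 2 (-0.56, adjusted p = 0.149), without knockout replicate 2 (-0.46, adjusted p = 0.170) and in DESeq2 (-0.59, adjusted p = 0.243).

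Sox3, the X-linked SOXB1 factor, went the other way. It had 2.28 CPM in both WT libraries and 3.76 and 4.75 CPM in the knockout libraries. Both knockout libraries lay above both WT libraries, as did 25.2% of all genes tested. The log2 fold change was 0.90 (SE 0.229, 95% interval 0.41 to 1.38, edgeR adjusted p = 0.0219), a level of 186% of WT. It rests on few reads, 31 and 35 for WT and 59 and 73 for the knockout. The direction was the same in all 13 alternatives, but the call was lost without WT replicate 1 (adjusted p = 0.0620), without WT replicate 2 (adjusted p = 0.0700), without knockout replicate 2 (0.72, adjusted p = 0.118) and in DESeq2 (adjusted p = 0.175). Sox3 (Entrez gene 20675) lies on chromosome X from 60891366 to 60893430.

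At the low end of the SOXB1 family, the ratio of Sox3 to Sox1 was accordingly higher in the knockout libraries. This ratio was not tested and carries the limits given for both genes, the few reads of Sox3 and the chromosome 8 shift at Sox1. The level of Sox3 per kb was 0.666 and 0.640 of that of Sox1 in the WT libraries, and 1.49 and 2.25 of it in the knockout libraries. Sox2 had 445 and 430 CPM for WT and 424 and 425 CPM for the knockout (log2 fold change -0.04, edgeR adjusted p = 0.813). Sox1 and Sox3 together made up 1.26% and 1.34% of the SOXB1 transcripts per kb in WT, against 1.46% and 1.58% in the knockout. These genes are paralogs of similar sequence in their DNA-binding region, so reads assigned there are uncertain.

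Ncam1 and Cdh2, the adhesion genes, gave no difference beyond the spread of their libraries. Ncam1 had 11.5 and 9.66 CPM in the WT libraries against 14.9 and 11.1 CPM in the knockout libraries, and the genotypes overlapped. Its log2 fold change was 0.30 (95% interval -0.06 to 0.65, edgeR adjusted p = 0.317), and it passed the threshold only without knockout replicate 2 (0.50, adjusted p = 0.0387). Cdh2 had 3.75 and 5.61 CPM in the WT libraries against 5.48 and 4.49 CPM in the knockout libraries. The WT libraries of Cdh2 were farther apart than the means of the genotypes, and its log2 fold change was 0.08 (95% interval -0.38 to 0.54, edgeR adjusted p = 0.875). The intervals leave out falls beyond -0.06 for Ncam1 and beyond -0.38 for Cdh2, but not smaller ones. Pax6 and Nes, which were chosen for their fall, had log2 fold changes of -1.18 and -1.06. Ncam1 (Entrez gene 17967) lies on chromosome 9 from 49502129 to 49799393, and Cdh2 (Entrez gene 12558) on chromosome 18.

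**Figure D3:**
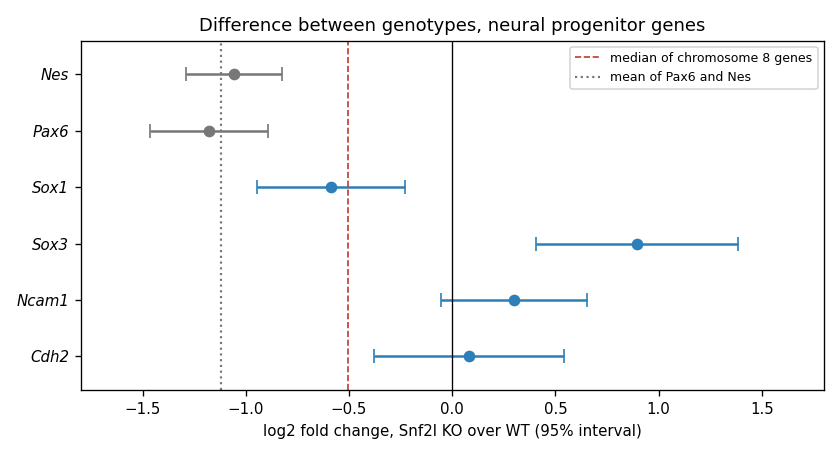
Log2 fold change of the 6 tested members, Snf2l knockout over WT (x axis), with bars for the 95% interval from the quasi-likelihood fit. Grey marks Pax6 and Nes, which were chosen for their fall. The dotted line is their mean (-1.12) and the dashed line the median of chromosome 8 genes (-0.51), on which Sox1 (-0.59) lies closely, while Sox3 lies at 0.90.

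The remaining 3 members were near the limit of detection in every library and were not tested. Hes5, the Notch effector, was seen with 4 and 3 counts in WT, against 1 and 0 in the knockout. The ratio of knockout to WT counts was 0.135, with an exact 95% counting interval of 0.00299 to 1.05. That interval includes no change and also the count ratios of Pax6 (0.446) and Nes (0.485). Pou3f2 was seen with 3 and 0 counts in WT, against 4 and 0 in the knockout, a ratio of 1.26 with an interval of 0.213 to 8.58. Fabp7, the radial glia gene, had 0 counts in both WT libraries, which allows a level of up to 0.220 and 0.196 CPM in them, and 1 and 2 counts in the knockout. Hes5 and Pou3f2 lie on chromosome 4 and Fabp7 on chromosome 10. At this depth a fall of these 3 genes was not detectable, and neither was a small rise. Intervals and limits cover counting error only.

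Summed over the 9 members, the level was 90.1 and 90.3 CPM in WT, against 59.9 and 55.9 CPM in the knockout. Nes made up 48.7% and 48.3% of this sum in WT, against 33.4% and 39.4% in the knockout. Without Pax6 and Nes the sum was 26.1 CPM in both WT libraries and 30.5 and 25.4 CPM in the knockout libraries, which overlapped. Pax6 and Nes held most of the WT sum and were chosen because they were lower. The lower sum of the 9 members follows from that choice. In bulk RNA, fewer cells that express a gene and less RNA of it per cell cannot be told apart.

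Position was examined because it was not used to choose the genes, and the 3 tested genes on either side of each member were read from the same fit. Around Pax6, 0 of 6 neighbours passed the threshold in edgeR and 1 had an unadjusted p-value under 0.05, with log2 fold changes from -0.08 to 0.28. Elp4, whose annotated span overlaps that of Pax6 by 1091 bp, was at -0.08 (adjusted p = 0.734). Around Nes, 0 of 6 passed and 1 had an unadjusted p-value under 0.05, with a range from -0.31 to 0.46. The nearest, Bcan and Crabp2, were at -0.31 (adjusted p = 0.706) and 0.46 (adjusted p = 0.165). No neighbour had a log2 fold change as low as that of Pax6 or Nes beside it. The value of Bcan was uncertain (SE 0.39), so a fall comparable to that of Nes was not excluded for it. As 9.21% of all genes tested passed the threshold in either direction, 0 of 6 differs little from that share.

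Neighbours of Sox1, Ncam1 and Cdh2 did pass the threshold. Around Sox1, 4 of 6 neighbours fell, namely Ing1 (-0.42), Ankrd10 (-0.57), Arhgef7 (-0.52) and Tubgcp3 (-0.70), with a largest edgeR adjusted p of 8.45e-03. All 6 lie on chromosome 8, and 4 of 6 is close to the 60.2% of tested genes that fell on that chromosome. Around Sox3, 0 of 6 passed in edgeR and 2 had an unadjusted p-value under 0.05, with a range from -0.70 to 0.47. Around Ncam1, 4 of 6 rose, namely Ttc12 (0.63), Tmprss5 (1.11), Plet1 (1.11) and Plet1os (1.19). Over all genes tested, 4.0% rose and 5.21% fell. The largest edgeR adjusted p of the 4 was 0.0492, that of Plet1os, which had 0.979 CPM in WT. Plet1 and Plet1os share part of their span, and their reads cannot be separated where counting ignores strand. Beside Cdh2, 1 of 6 fell, Psma8 (-0.60, adjusted p = 0.0120), and beside Hes5, Pou3f2 and Fabp7 0 of 18 passed. Of the latter, 4 had an unadjusted p-value under 0.05.

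Antisense and overlapping transcripts were read for the same reason. Pax6os1 had 0 counts in every library and Sox1ot had 6 counts or fewer, far below the counts of Pax6 and Sox1. Gm11149, which lies within Ncam1, had between 14 and 20 counts.

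**Figure D4:**
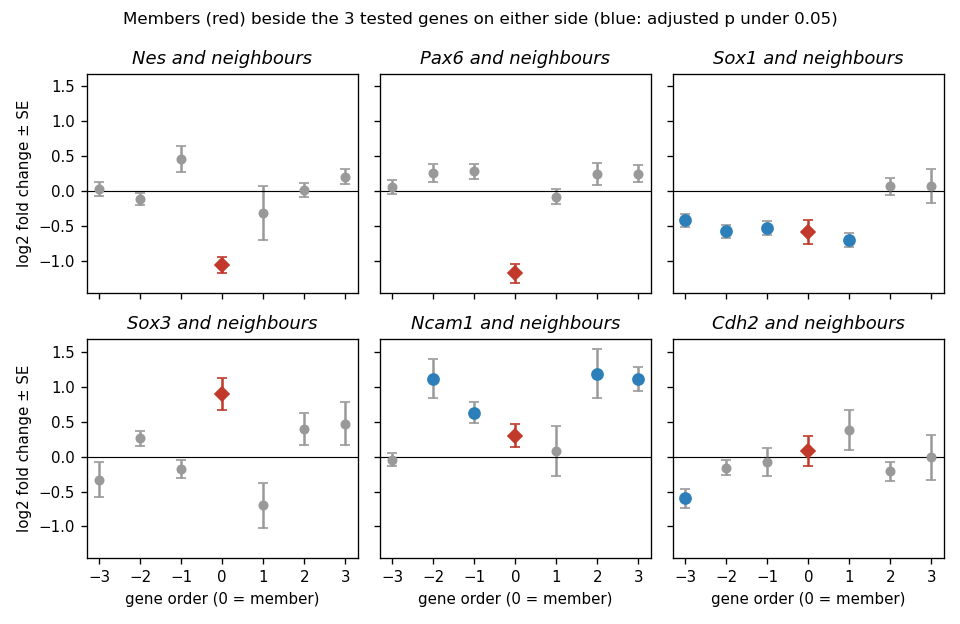
Log2 fold change ± SE (y axis) of 6 members (red diamonds, at 0) and of the 3 tested genes on either side in the order of their positions (x axis). Blue points passed an adjusted p-value of 0.05. Nes and Pax6 stand below all of their neighbours, Sox1 lies among 4 lower neighbours, and Ncam1 lies below 4 neighbours that rose.

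Genes that work with the members were then counted, in lists of Notch pathway genes, neural transcription factors, radial glia and neuronal genes, adhesion genes, intermediate filaments and lipid or retinoid binding proteins. Of 115 genes in these lists, 81 were tested, of which 8 fell (9.88%) and 11 rose (13.6%), against 5.21% and 4.0% of all genes tested. Their median log2 fold change was 0.02. The 8 that fell included 3 genes of chromosome 8 (Tubb3, Cdh1 and Cdh3). With the chromosome 8 shift removed, 3 fell and 9 rose.

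In the Notch pathway, on which Hes5 depends, 2 of 19 tested genes rose and 0 fell. The median was 0.05. Dll1, a Notch ligand, gave 49 and 62 counts for WT and 142 and 138 for the knockout. Its level was 3.82 ± 0.315 CPM (SD, n = 2) in WT cells and 9.02 ± 0.0501 CPM (SD, n = 2) in knockout cells. It rose by 1.23 on the log2 scale (SE 0.172, edgeR adjusted p = 4.05e-04). The other is Hes6, a HES family factor named after its values were seen, at 0.63 (adjusted p = 0.0241). The receptors Notch1, Notch2, Notch3 and Notch4 lay between 0.02 and 0.15, and Hes1 was at 0.05, none past the threshold.

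Among neural plate and regional transcription factors, 15 of 28 were tested, with 2 lower, 2 higher and a median of -0.14. Zic2 fell from 26.9 ± 2.93 to 14.2 ± 1.21 CPM (log2 fold change -0.92, SE 0.129, edgeR adjusted p = 4.30e-04). Zic5, a zinc finger gene of the same family on the same chromosome 14, was at -0.70 (SE 0.116, adjusted p = 1.34e-03). Gbx2, a regulator of the midbrain-hindbrain boundary that is also expressed in ESCs, rose to 128 ± 2.56 CPM from 80.5 ± 0.146 (0.67, adjusted p = 2.96e-04). Pou3f1 (OCT6), a POU factor of epiblast and neural plate, rose from 19.9 ± 0.530 to 33.1 ± 1.81 CPM (0.73, adjusted p = 8.21e-04). In these genes the knockout libraries did not overlap the WT libraries. Over all genes tested, 25.3% had both knockout libraries below both WT libraries and 25.2% had them above.

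Neuronal genes also went both ways, with 3 of 13 lower, 1 higher and a median of -0.19. Tubb3, a neuronal tubulin that lies on chromosome 8, was at -0.61 (SE 0.0995, edgeR adjusted p = 1.18e-03). Elavl4, an RNA-binding protein of neurons, was at -0.97 (adjusted p = 9.05e-03) and Gap43, a growth cone protein, at -0.41 (adjusted p = 0.0385). Neurod1, a proneural factor, rose from 11.1 ± 1.91 to 21.1 ± 0.901 CPM (0.93, SE 0.142, adjusted p = 7.90e-04).

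Of the radial glia and neural stem cell genes, 8 were tested, with 2 higher and 0 lower and a median of 0.05. Tnc, a matrix protein that radial glia share with other cell types, gave 0 and 2 counts for WT and 43 and 31 for the knockout. Taken against 3 counts per library, this is at least 11.4-fold higher. Prom1, named after its values were seen, was at 0.61 (edgeR adjusted p = 0.0368).

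Among the relatives of Nes, 10 intermediate filament genes were tested, of which 3 rose and 1 fell, with a median of 0.06. Krt18 and Krt8, partner keratins of simple epithelium, rose by 1.25 (SE 0.117, edgeR adjusted p = 1.81e-05) and 1.10 (SE 0.121, adjusted p = 7.37e-05) on the log2 scale. Vim (vimentin), with which nestin assembles into filaments, was named after its values were seen and had means of 86.2 CPM for WT and 135 CPM for the knockout (0.65, adjusted p = 4.30e-04). Prph, also named afterwards, was at -0.70 (adjusted p = 0.0454). Nes and its filament partner Vim thus differed in direction.

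Of 11 adhesion genes tested, Cdh1 (E-cadherin) and Cdh3 (P-cadherin), neighbours on chromosome 8, fell by 0.53 and 0.62 on the log2 scale (edgeR adjusted p = 8.43e-04 and 1.14e-03), and 0 rose. The median of the list was 0.11. The 5 fatty acid and retinoid binding proteins tested, relatives of Fabp7, had a median log2 fold change of 0.36.

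**Figure D5:**
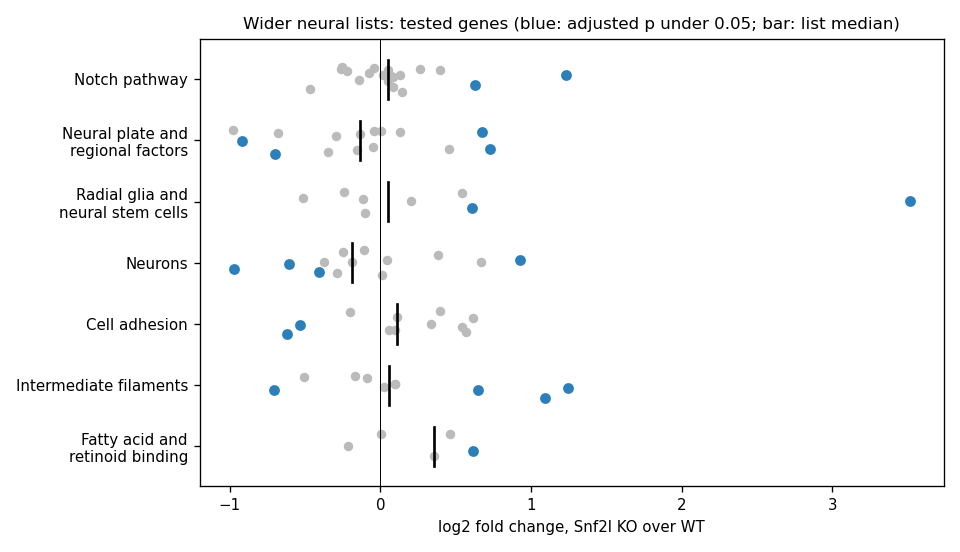
Log2 fold change (x axis, Snf2l knockout over WT) of the tested genes of 7 lists (rows), with blue for an adjusted p-value under 0.05 and a black bar for the list median. Medians lie between -0.19 and 0.36, and each of the lists of transcription factors, neuronal genes and intermediate filaments holds blue points on both sides of 0. Tnc is drawn at its lower bound of 3.52.

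Some markers of other cell types also rose in this comparison, at low levels. Over all genes tested, 4.0% rose and 5.21% fell, and each marker list holds few tested genes. Of 6 primitive endoderm markers, 4 rose (Pdgfra, Gata6 and Gata4 among them) and 0 fell, and their summed level was 16.1 to 17.0 CPM for WT and 27.0 to 27.3 CPM for the knockout. Of 8 fibroblast markers, 5 were tested and 2 rose, Col1a1 and Col3a1, with sums of 11.4 to 13.7 CPM and 25.2 to 26.4 CPM. The fibroblast marker Lum had 0 counts in every library, and Dcn had 2 counts or fewer. Of 6 mesoderm markers, 4 were tested and 2 rose (5.94 to 6.54 CPM against 8.91 to 10.6 CPM). Of 5 trophoblast markers, 3 were tested and 1 rose, Krt7, with 2.12 CPM for WT and 3.64 CPM for the knockout. The sum of this list was 58.6 to 68.0 CPM for WT and 68.0 to 70.6 CPM for the knockout. Most of it was Tfap2c, at 60.3 and 64.1 CPM (log2 fold change 0.09, edgeR adjusted p = 0.688). The part of such cells in the differences of the neural progenitor genes was not tested.

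Finally, the genes whose 4 library values lay nearest to those of Pax6 and Nes were identified among 13011 genes, by the distance between log2 CPM values after each gene's own mean was subtracted. Nearest to Pax6 were Arhgap45 (distance 0.0273), Trh (0.0827), which codes for thyrotropin-releasing hormone, and Krt17 (0.0861). Trh had 396 ± 16.9 CPM for WT and 178 ± 3.82 CPM for the knockout, a log2 fold change of -1.16 beside -1.18 for Pax6. Nearest to Nes were Ptpn7 (0.0819), Galnt7 (0.0935) and Eif4a3l1 (0.100). Pax6 and Nes lay 0.230 apart, and 23 of the genes compared were nearer to Pax6 than Nes was. With 4 libraries in 2 groups this likeness mostly describes the size of the difference between genotypes.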

How the data were processed

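The authors deposited 1 table of raw counts per Entrez gene with a length in bp. Per the study's methods, reads were aligned to mm10 with QuasR and HISAT2 and counted over UCSC Known Genes. The submitters' processing notes name bcl2fastq 2.17. The labels and the methods name different library kits, and no source states whether counting used strand. Of 24594 genes, 24570 were matched to RefSeq symbols and positions (GRCm38.p6).

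The counts were fitted by edgeR 4.0.16 (R 4.3.3), using filterByExpr (minimum count 10), TMM scaling and the legacy quasi-likelihood test. The study's model had terms for batch and genotype, and genotype was used here as the only term. P-values are two-sided and adjusted over all 13840 genes tested. SE and 95% intervals come from the F statistic. A gene fell or rose at an adjusted p-value under 0.05. The procedure was tested on simulated data. The common biological coefficient of variation was 7.45%. Libraries of 1 genotype differed beyond sampling noise (chi-square per degree of freedom of 5.48 within WT and 7.83 within the knockout).

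The members and lists were chosen with earlier results of these data known. Genes were named as members, as differentially expressed genes of a list or else its 4 smallest adjusted p-values, as neighbours past the threshold, or as nearest in pattern. A gene of the wider lists is not reported here. Alternatives were other scalings and filters, DESeq2 1.42.0, the replicate number as a block, the edgeR 4 fit, removal of the chromosome 8 shift, and each library left out.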

Additional observations from a re-analysis of the deposited data

How the results depend on the processing

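The log2 fold changes of Pax6, Nes, Sox1, Sox3 and Ncam1 kept their sign in all 13 alternatives. For Pax6 and Nes, which were chosen on these libraries, this is a description. Cdh2 turned to -0.17 without WT replicate 1 and to -0.07 without knockout replicate 1, and ranged up to 0.41 with 1 library left out. The number of the other 7 members that fell was 0 in place of 1 under upper-quartile scaling, DESeq2, a filter of at least 1 count in all libraries together, removal of the chromosome 8 shift and the threshold for differentially expressed genes. Under the filter and the upper-quartile scaling Sox1 had adjusted p-values of 0.0558 and 0.0516. The number that rose was 0 in place of 1 in DESeq2 and at the threshold for differentially expressed genes. With 1 library left out, each of these numbers ranged from 0 to 1, in fits that assume the lone library of a genotype to vary like the other pair. Over all genes, the number that fell ranged from 511 to 1115 and the number that rose from 318 to 817 in these fits, and DESeq2 called 303 that rose. Removing the chromosome 8 shift left 217 genes that fell. In the wider lists 8 fell, but 5 in DESeq2 and 3 with the chromosome 8 shift removed. Of the 8, 3 lie on chromosome 8 and 5 elsewhere, and the cause of the calls lost elsewhere was not tested. With 1 library left out, 6 to 9 of them fell and 8 to 13 rose.

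With the replicate number as a block, 1861 genes fell and 1610 rose, and of the wider lists 15 genes fell and 16 rose. The same-numbered libraries deviated together with a correlation of 0.196 across genes. With 2 pairs this cannot settle whether equal numbers mark a pairing, and the fit without the block was kept as the main one. The block changed no call of the members (Sox1 adjusted p = 2.27e-03, Sox3 adjusted p = 8.68e-04). Low counts kept Hes5, Pou3f2 and Fabp7 out of the test.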

Other observations

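Hes3, a relative of Hes5 in the Notch list, was noticed after its values were seen. It was below the filter on low counts, with 7 counts in each WT library and 1 and 4 counts in the knockout libraries, and was not tested.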
